A study of Homo sapiens with 6 samples.

Results

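Intermediate filaments are the rope-like polymers that, beside actin and microtubules, give animal cells their mechanical strength, and a separate branch of the family, the lamins, lines the inside of the nuclear envelope. Hepatic stellate cells are the vitamin A-storing cells of the liver that turn into collagen-producing myofibroblasts in fibrosis. They are known for vimentin, for desmin (the classical stellate cell marker of rodent liver), and for the neural proteins nestin and GFAP. Simple keratins, in contrast, mark hepatocytes and bile duct cells and assemble only as pairs of a type I and a type II chain.

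The 10 genes described here were chosen by name as the intermediate filament genes of interest in stellate cells: VIM, DES, NES and GFAP, the keratins KRT7, KRT8, KRT18 and KRT19, and the lamins LMNA and LMNB1. All 10 were found, each as 1 row, among the 32750 Ensembl genes of the deposited table. RNA was sequenced from LX-2, an established human hepatic stellate cell line, as 3 libraries from cells that received a non-targeting control siRNA and 3 labelled as treated with an siRNA that targets ATP6AP1, an accessory subunit of the proton pump that acidifies lysosomes. Control cells are labelled wild type and the others ATP6AP1 transient knockdown; the submitters call the libraries of a group independent biological replicates, and neither the siRNA sequence nor its dose or the time after transfection is stated. The title calls the cells activated, but no activating agent is named. All libraries come from a single cell line, so the replicates do not sample donors.

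Depth was 15644464 to 19656533 counts per library. The siRNA target went against its label: ATP6AP1 stood at 116, 117 and 129 CPM (each count as its share of the normalised library) in the control libraries and at 144, 146 and 139.9 CPM in the libraries labelled ATP6AP1 siRNA, 1.19-fold higher (95% confidence interval 1.08 to 1.30; edgeR adjusted p = 0.00425), a call that was lost with each library's trend on gene span removed (log2 fold change 0.15, adjusted p = 0.0642, the highest over alternatives) and was 0.38 with library size alone. Every direction below is therefore that of the libraries labelled ATP6AP1 siRNA, not of a measured depletion. Of 15372 genes tested, 53.3% passed an adjusted p of 0.05, 26.7% raised and 26.6% lowered. That split rests on the scaling between libraries: without a composition factor the median log2 fold change of all tested genes moves up by 0.14. The cell type label was compared with markers. Of 13 stellate cell markers in the table, 10 passed the filter on low counts, led by COL1A1 and THY1, while DCN and LUM were at 29 and 11 counts summed over all 6 libraries. Epithelial markers summed to 25.1 to 31.9 CPM in the control libraries and 26.9 to 34.9 CPM in the others, most of it SOX9 followed by CLDN4, and the defining genes EPCAM and CDH1 held 27 and 11 counts in all libraries together.

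In these cells vimentin was by far the most abundant of the 10 genes, followed at a distance by both lamins and the KRT8 and KRT18 pair, whereas desmin, nestin, GFAP and KRT19 were at the edge of detection. VIM, KRT8, KRT18, LMNA and LMNB1 were all lower in the libraries labelled ATP6AP1 siRNA, by 1.44-fold to 1.77-fold. These were 5 of the 6 members that could be tested, beside 26.6% lowered among all tested genes; KRT7 did not pass, and no member was raised. In the same 5 the groups did not overlap, all of them lower, as was the case for 29.7% of all tested genes, with 29.8% higher and 59.5% in either direction. The median log2 fold change of the 6 tested members was -0.60, against -0.0043 over all 15372 tested genes.

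**Figure D1:**
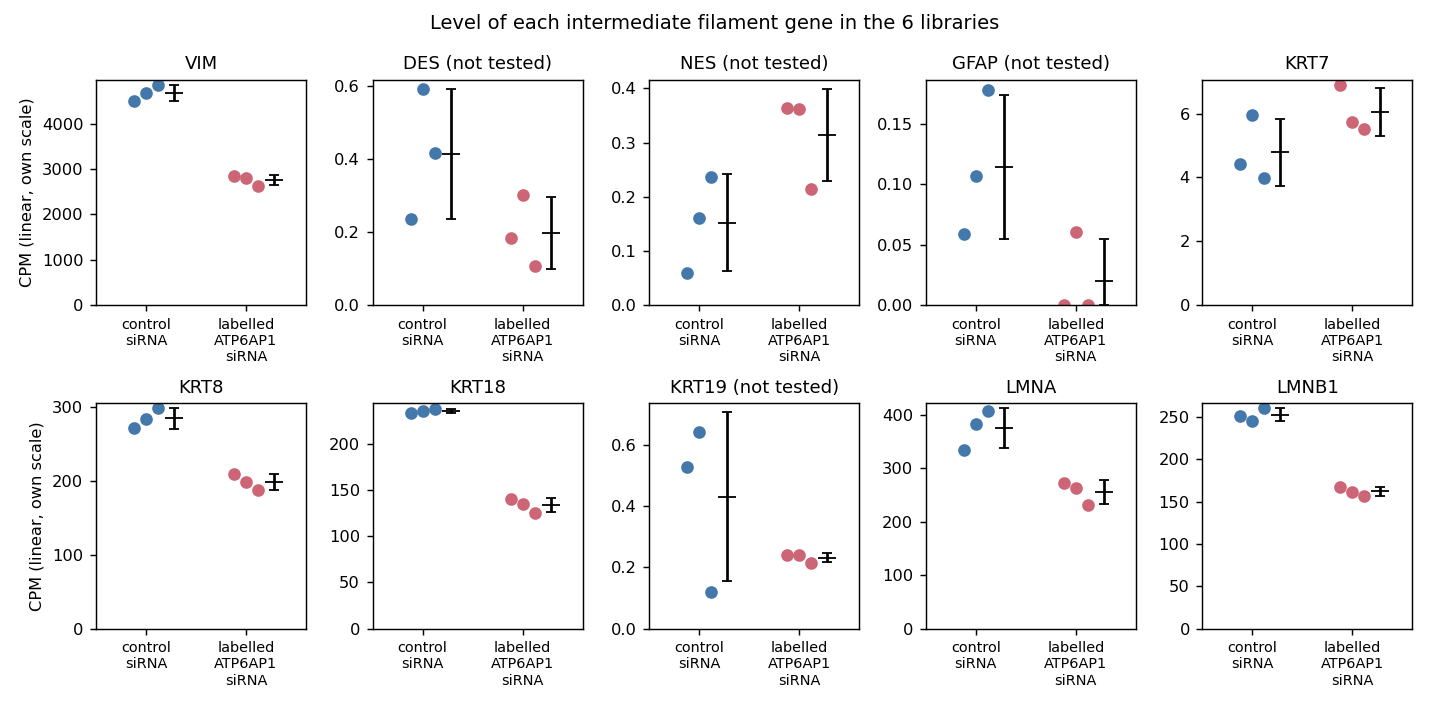
Level in CPM (linear axes from 0, a separate scale for each gene) of the 10 genes in 3 control and 3 labelled ATP6AP1 siRNA libraries; points are libraries, bars the mean and SD (n = 3 each, the lower bar ended at 0 for GFAP). The groups are apart for VIM, KRT8, KRT18, LMNA and LMNB1, while DES, NES, GFAP and KRT19 stay under 1 CPM.

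Vimentin, the type III filament of mesenchymal cells, was considered first. VIM (ENSG00000026025, GRCh38 chromosome 10, 17228241 to 17237593, plus strand) stood at 4497, 4679 and 4861 CPM in the control libraries and at 2847, 2792 and 2632 CPM in the libraries labelled ATP6AP1 siRNA. The groups lie far apart, and the lowest control library is above the highest of the others. Group means were 4679 ± 182 CPM and 2757 ± 111 CPM (SD, n = 3 each), leaving 0.589 of the control level (95% confidence interval 0.543 to 0.640). On the log2 scale VIM fell by 0.76 (SE 0.0546, edgeR quasi-likelihood test with Benjamini-Hochberg adjustment, adjusted p = 1.89e-07), and 6.66% of all tested genes had a lower one. By mean CPM VIM ranked 5 among all genes of the table, and it took 0.430 to 0.463% of all counts in a control library against 0.274 to 0.300% in the others. These are bulk samples, in which fewer cells expressing a gene and less RNA per cell cannot be told apart. VIM-AS1, a long noncoding RNA on the opposite strand whose exons share 656 bases with those of VIM, held 0.162% as many counts as VIM. It stood at 6.06, 9.18 and 6.59 CPM in the control libraries and at 4.12, 3.68 and 6.17 CPM in the others, with overlapping groups. Its log2 fold change of -0.64 (edgeR adjusted p = 0.0217) is uncertain, since no strand setting is given, and it did not pass without control replicate 2 (-0.42, adjusted p = 0.145), without ATP6AP1 siRNA replicate 1 (-0.56, 0.0686) or replicate 2 (-0.50, 0.0911), or with library size alone (-0.50, 0.0620); its adjusted p ran from 0.000551 to 0.145 over alternatives.

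The start region of VIM is shown because VIM is the most abundant member, with that of LMNB1, a nuclear member that was lowered too and whose window lies at its MANE Select start. Both windows are from RefSeq on GRCh38.p14 and run from 250 bases before to 50 bases after a start of transcription, here that of the MANE Select transcript; windows of KRT8 and LMNA in the same table lie 21393 and at least 7995 bases upstream of theirs and are not shown. Capitals mark matches, on either strand, to 6 short motifs. For core promoters these were TATAAA, the element read by the TATA-binding protein, the element CCAAT read by NF-Y, and the GC box GGGCGG read by SP1. For regulated factors they were the AP-1 element TGANTCA, the element GGAATG read by TEAD proteins, which are the DNA-binding partners of YAP and TAZ, and the E-box CACGTG.
VIM, chr10:17227991-17228290, plus strand: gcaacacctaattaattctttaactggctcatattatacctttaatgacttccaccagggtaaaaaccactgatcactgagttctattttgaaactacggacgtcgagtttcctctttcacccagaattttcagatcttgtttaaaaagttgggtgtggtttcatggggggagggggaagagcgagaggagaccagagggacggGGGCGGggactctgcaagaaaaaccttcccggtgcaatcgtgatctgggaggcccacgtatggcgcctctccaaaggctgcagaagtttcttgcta
LMNB1, chr5:126776886-126777185, plus strand: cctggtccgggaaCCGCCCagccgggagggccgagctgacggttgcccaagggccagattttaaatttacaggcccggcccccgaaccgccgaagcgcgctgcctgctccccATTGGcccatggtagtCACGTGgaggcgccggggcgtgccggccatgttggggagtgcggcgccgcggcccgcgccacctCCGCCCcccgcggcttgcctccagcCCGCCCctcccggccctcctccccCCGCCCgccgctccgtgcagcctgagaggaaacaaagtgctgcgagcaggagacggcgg
In the VIM window 1 GC box was found, at position -46 counted from the start, and none of the other motifs. The LMNB1 window held 4 GC boxes, a CCAAT box at -138 and an E-box at -122. Of 35116 RefSeq windows of this length, 45.0% held a GC box, 34.6% a CCAAT box, 7.26% the E-box, 14% the TEAD motif, 7.71% the AP-1 motif and 11.5% TATAAA. A match is a string of letters and not a measured site, and none in a window says only that these letters are not in it.

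Transcripts of the other filament proteins for which stellate cells are known were nearly undetected. DES, desmin, the muscle-type filament, had 4, 11 and 7 counts in the control libraries against 3, 5 and 2 counts in the libraries labelled ATP6AP1 siRNA. Summed over a group this is 22 counts (95% Poisson interval 13.8 to 33.3) and 10 counts (4.80 to 18.4), or 0.399 and 0.203 CPM on the raw library totals. GFAP, the astrocyte filament also reported in stellate cells, had 1, 2 and 3 counts in the control libraries against 0, 1 and 0 in the others. NES, nestin, a long filament protein of progenitor cells that co-assembles with vimentin, had 1, 3 and 4 counts in the control libraries against 6, 6 and 4 in the others. In group sums NES went from 8 (3.45 to 15.8) to 16 (9.15 to 26.0) counts. The counts of the groups overlap for DES, GFAP and NES alike, and no difference was detectable at this depth. None of these 3 genes passed the filter on low counts, and with no filter their adjusted p values were 0.334, 0.375 and 0.453. Intervals on counts cover counting error only. The MANE Select transcript of GFAP shares 40.6% of its bases with exons of CCDC103 on the other strand, so that even its few counts are of uncertain origin.

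Among the simple keratins, the KRT8 and KRT18 pair was expressed, and transcripts of both chains were lower. KRT8 (ENSG00000170421, chromosome 12, 52897187 to 52949954, minus strand), the type II chain, stood at 271, 284 and 299 CPM in the control libraries and at 209, 198 and 188 CPM in the libraries labelled ATP6AP1 siRNA. No library of a group reaches the range of the other. Group means were 285 ± 13.9 CPM and 198 ± 10.4 CPM (SD, n = 3 each), 0.697 of the control level (95% confidence interval 0.635 to 0.764), with a log2 fold change of -0.52 (SE 0.0612, edgeR adjusted p = 1.30e-05). KRT18 (ENSG00000111057, chromosome 12, 52948871 to 52952906, plus strand), its type I partner, stood at 233, 235 and 238 CPM in the control libraries and at 140.1, 135 and 125 CPM in the others. The control libraries lie within a few CPM of each other, and all 3 of the others are below them. Group means were 235 ± 2.36 CPM and 133 ± 7.5 CPM, 0.567 of the control level (95% confidence interval 0.519 to 0.619), with a log2 fold change of -0.82 (SE 0.0587, edgeR adjusted p = 1.89e-07).

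The balance within the pair was compared library by library. The log2 ratio of KRT8 to KRT18, on the per-length scale (TPM, counts divided by exon length and scaled to the same total), was -0.95, -0.89 and -0.84 in the control libraries against -0.59, -0.61 and -0.58 in the others. The groups do not overlap, and the ratio went from 0.539 to 0.663 KRT8 per KRT18, a log2 difference of 0.30. An exact permutation test gave p = 0.1 (two-sided, the smallest that 3 libraries against 3 allow; 0.133 adjusted over the 4 ratios examined). Such a ratio within a library does not depend on the scaling between libraries. Whether KRT8 or KRT18 is the more abundant does depend on the length used: with the longest transcript in place of all exons the same ratios were 0.882 and 1.08. Both genes carry a limit on counting. They are neighbours on opposite strands whose annotated exons share 525 bases, 26.5% of the MANE Select transcript of KRT18 lies in annotated exons of KRT8, and no strand setting is given. Moreover, 22.1% of the 50-base windows of KRT8 and 21.7% of those of KRT18 occur in transcripts of other genes, mostly processed pseudogenes. The 15 KRT8 pseudogene rows of the table held 0.357 to 1.77% as many counts as KRT8, and the 14 KRT18 pseudogene rows 0.260 to 0.685% as many as KRT18.

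**Figure D2:**
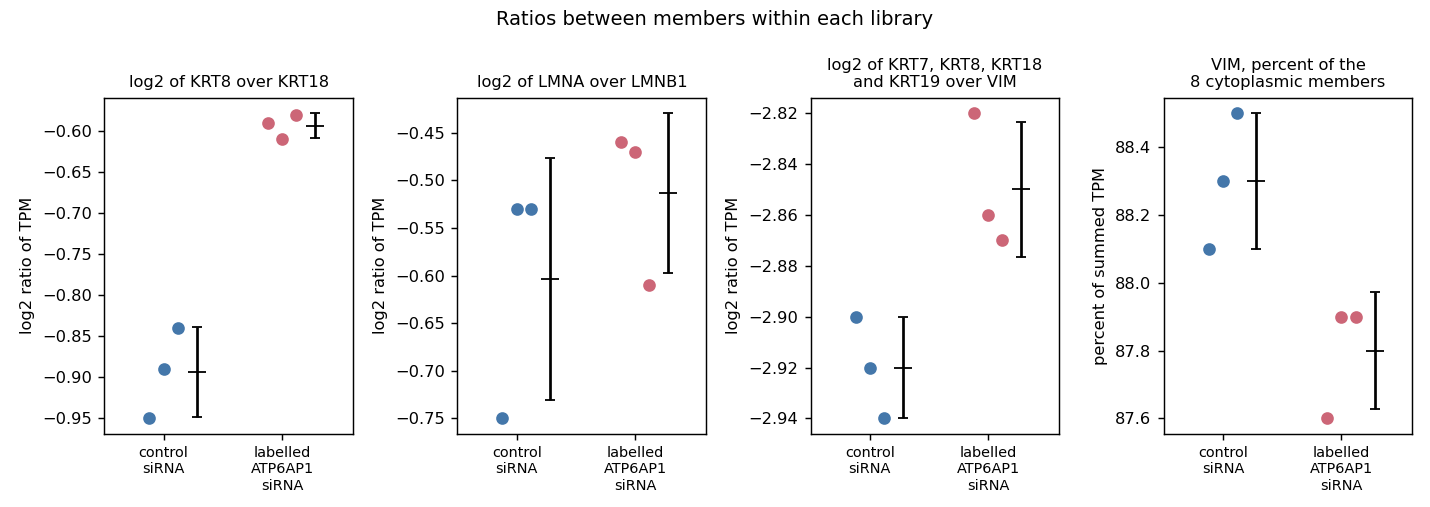
Ratios between members within each library, as log2 ratios of TPM, and VIM as a percent of the summed TPM of the 8 cytoplasmic members; points are libraries, bars the mean and SD (n = 3 each), and axes do not start at 0. The KRT8 to KRT18 ratio is -0.95 to -0.84 in the control libraries against -0.61 to -0.58 in the others, while the LMNA to LMNB1 ratio overlaps.

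KRT7 and KRT19, the keratins of bile duct epithelium, were far below that pair in level. KRT7 (ENSG00000135480, chromosome 12, 52232520 to 52252186), a type II chain, stood at 4.42, 5.96 and 3.98 CPM in the control libraries and at 6.91, 5.73 and 5.53 CPM in the libraries labelled ATP6AP1 siRNA. The groups overlap, with control replicate 2 above 2 of the 3 others. Group means were 4.78 ± 1.04 CPM and 6.06 ± 0.745 CPM (SD, n = 3 each), and the log2 fold change of 0.33 (95% confidence interval -0.052 to 0.72) did not pass (edgeR adjusted p = 0.133). Without control replicate 2 it was 0.54 and passed (adjusted p = 0.0342), as it did with library size alone (0.47, 0.0407), over a range of adjusted p from 0.0342 to 0.362. KRT19, a type I chain, had 9, 12 and 2 counts in the control libraries and 4 in each of the others, 0.417 and 0.243 CPM on the summed raw totals of the groups. It was not tested, and with no filter its adjusted p was 0.431.

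The keratins among the 10 genes were set against vimentin as a sum, leaving out keratins outside that list. Summed KRT7, KRT8, KRT18 and KRT19 stood at a log2 ratio to VIM of -2.90, -2.92 and -2.94 in the control libraries against -2.82, -2.86 and -2.87 in the others, a difference of 0.069. VIM made up 88.1, 88.3 and 88.5% of the summed TPM of the 8 cytoplasmic members in the control libraries against 87.6, 87.9 and 87.9% in the others. The groups do not overlap in either quantity, and each difference is small beside the fall of VIM itself (exact permutation p = 0.1 for each, the smallest possible, and 0.133 adjusted over the 4 ratios). DES, NES and GFAP add almost nothing to the summed TPM, so the VIM share restates the keratin to VIM ratio and is not a separate result.

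Transcripts of the lamins, which form the meshwork under the inner nuclear membrane, were lower as well. LMNA (ENSG00000160789, chromosome 1, 156082573 to 156140081), which encodes lamins A and C by alternative splicing, stood at 334, 383 and 407 CPM in the control libraries and at 273, 262 and 231 CPM in the libraries labelled ATP6AP1 siRNA. The groups are apart, and the control libraries differ more among themselves, relative to their mean, than for VIM, KRT8, KRT18 or LMNB1. Group means were 375 ± 37.0 CPM and 256 ± 21.8 CPM (SD, n = 3 each), 0.682 of the control level (95% confidence interval 0.605 to 0.769), with a log2 fold change of -0.55 (SE 0.0799, edgeR adjusted p = 7.54e-05). The table counts genes, so lamins A and C were not separated. LMNB1 (ENSG00000113368, chromosome 5, 126776623 to 126837020), a permanently farnesylated B-type lamin whose loss is a known mark of senescent fibroblasts, stood at 251, 246 and 261 CPM in the control libraries and at 168, 162 and 157 CPM in the others. The spread within a group is small beside the gap between them. Group means were 253 ± 7.70 CPM and 162 ± 5.32 CPM, 0.642 of the control level (95% confidence interval 0.590 to 0.698), with a log2 fold change of -0.64 (SE 0.0558, edgeR adjusted p = 9.98e-07).

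The balance between the lamins was not shown to differ. The log2 ratio of LMNA to LMNB1 was -0.75, -0.53 and -0.53 in the control libraries against -0.46, -0.47 and -0.61 in the others. The groups overlap, and the difference of 0.089 had an exact permutation p = 0.5 (two-sided; 0.5 adjusted over the 4 ratios). The level of LMNA relative to LMNB1 depends on the length used, 0.660 and 0.702 with all exons and 1.42 and 1.51 with the longest transcript. LMNB2, the other B-type lamin, stood at 385, 421 and 449.9 CPM in the control libraries and at 387, 370.4 and 347 CPM in the others. Its groups overlap, and its log2 fold change of -0.18 (edgeR adjusted p = 0.0340) rests on the scaling, being -0.047 with library size alone (adjusted p = 0.583) and -0.30 with the gene span trend removed, and on single libraries. It did not pass without control replicate 2 (adjusted p = 0.126), control replicate 3 (0.192), ATP6AP1 siRNA replicate 2 (0.0895) or ATP6AP1 siRNA replicate 3 (0.0918), or with the replicate number as a block (0.0927), within a range from 0.00220 to 0.583.

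On the per-length scale the order in the control libraries was VIM (3487 ± 181 TPM), KRT18 (296 ± 7.46), LMNB1 (268 ± 12.7), LMNA (178 ± 19.3), KRT8 (159.6 ± 9.93) and KRT7 (4.60 ± 0.936; SD, n = 3 each), and the remaining 4 were under 1 TPM. The values of LMNA and KRT8 overlap between libraries, but LMNA was the higher within every library. The same order by mean was seen in the libraries labelled ATP6AP1 siRNA except that LMNB1 (189 ± 7.52 TPM) and KRT18 (183 ± 11.6) changed places. Their values overlap between libraries, but LMNB1 was the higher within each library of that group. With the length of the longest transcript the control order was VIM (4747 ± 250.2 TPM), KRT18 (305 ± 7.93), LMNA (280.4 ± 30.7), KRT8 (269 ± 17.0) and LMNB1 (197 ± 9.43). On that scale the means of LMNA and KRT18 differ by less than the SD of LMNA, and the 2 genes were not compared within libraries. VIM was first and KRT7 was sixth, both clear of the spread, under either length.

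The lowered members shared their lowest library. ATP6AP1 siRNA replicate 3 was the lowest library for each of VIM, KRT8, KRT18, LMNA and LMNB1. As the groups do not overlap for these genes, the lowest could only be a library labelled ATP6AP1 siRNA. How often replicate 3 was the lowest among all lowered genes was not counted. Over the 6 libraries the Pearson correlation of log2 CPM with VIM was 0.998 for KRT18, 0.997 for LMNB1, 0.994 for KRT8 and 0.966 for LMNA, and -0.643 for KRT7, as a description that rests mostly on the gap between the groups. Among 5041 protein-coding genes with a mean of at least 50 CPM, the 4 most like VIM by this measure were TBL1X (0.9999), BCAR3 (0.9998), MARCHF4 (0.9995) and NR2F2 (0.9991), and 204 had a correlation over 0.99. TBL1X, a subunit of nuclear receptor corepressor complexes, went from 79.0 ± 4.78 to 32.5 ± 2.04 CPM (SD, n = 3 each), and NR2F2, an orphan nuclear receptor of mesenchymal cells, from 616 ± 54.4 to 185 ± 17.4 CPM.

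Other genes of the intermediate filament family went both ways. Of 52 on a list of the remaining family members, 40 were in the table and 14 were tested, of which 3 were raised, 7 were lowered and 4 did not pass (median log2 fold change -0.28). Beside these counts, 26.7% of all tested genes were raised and 26.6% lowered. SYNM, synemin, which joins vimentin and desmin filaments to other structures, stood at 24.6, 28.4 and 28.8 CPM in the control libraries and at 41.1, 45.2 and 43.4 CPM in the libraries labelled ATP6AP1 siRNA, 1.59-fold higher without overlap (edgeR adjusted p = 1.75e-05). SYNC, syncoilin, a partner of desmin in muscle, went the other way, from 21.5, 23.7 and 22.2 CPM to 11.3, 12 and 12.4 CPM, 1.88-fold lower (adjusted p = 2.40e-06). INA, the neuronal filament alpha-internexin, rose by 0.40 on the log2 scale (adjusted p = 0.00569), and BFSP1, a lens filament gene at 1.03 ± 0.0400 CPM in the control libraries that was named after its values were seen, rose by 0.83 (adjusted p = 0.0136). Raised genes of this list numbered 2 in place of 3 with DESeq2, with the filter of 5 CPM and without ATP6AP1 siRNA replicate 2. They ran from 2 to 4 over alternatives. SYNM and INA passed in those settings, so the call of BFSP1 is uncertain.

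Keratins outside the list of 10 were lower where they passed. KRT81, a hair keratin, stood at 65.5, 75.3 and 64.7 CPM in the control libraries and at 27.2, 23.9 and 21.3 CPM in the others, 2.84-fold lower (edgeR adjusted p = 6.70e-08), uncertain since other genes, above all KRT86, hold 44.6% of its windows of 50 bases. KRT80, an epithelial type II chain, fell by 0.92 on the log2 scale (16.1 ± 1.77 and 8.49 ± 0.790 CPM, SD, n = 3 each) and KRT34, a hair keratin, by 0.37 (23.9 ± 0.966 and 18.5 ± 1.21 CPM), or by 0.23 with library size alone. KRT10, the type I chain of differentiated epidermis, was at 60.6 ± 8.26 and 69.4 ± 1.97 CPM and did not pass (log2 fold change 0.19, adjusted p = 0.0799), though it did with library size alone (0.33, 0.00662), with no filter (0.20, 0.0378), and without control replicate 1 (0.27, 0.0388) or control replicate 2 (0.27, 0.0484), within a range up to 0.213.

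**Figure D3:**
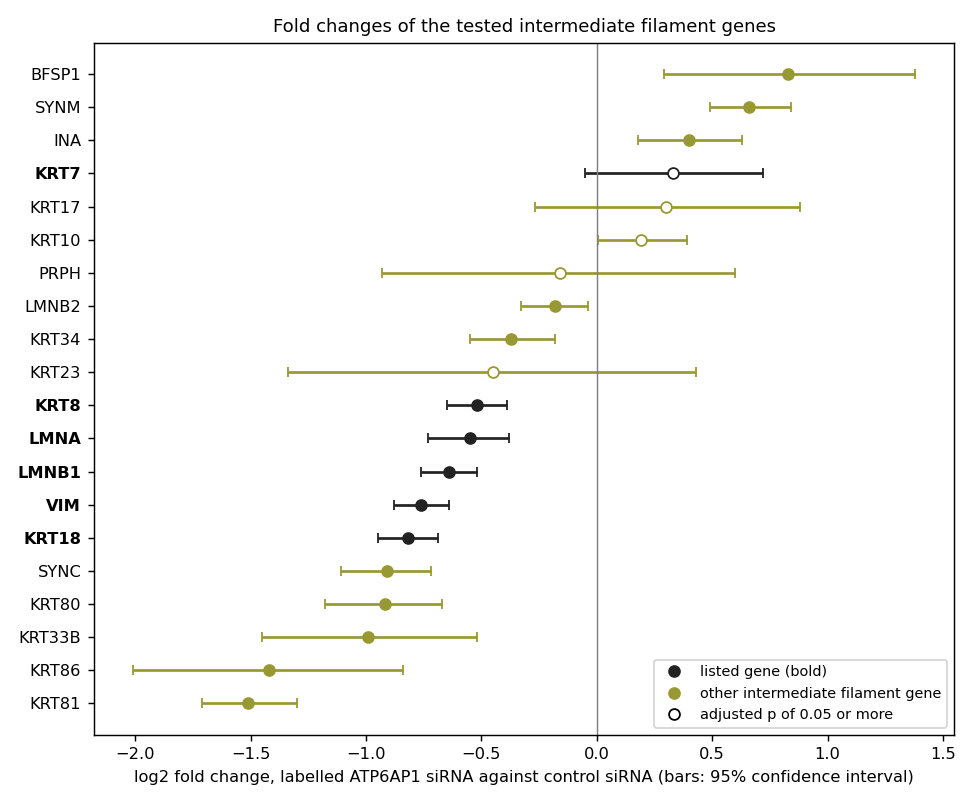
Log2 fold change of the 20 tested intermediate filament genes, libraries labelled ATP6AP1 siRNA against control libraries, with 95% confidence intervals from the edgeR fit; bold names and black points are among the 10 listed genes, open points did not pass. VIM, KRT8, KRT18, LMNA and LMNB1 lie between -0.82 and -0.52, KRT81 is lowest at -1.51, and the genes above 0 that passed are SYNM, INA and BFSP1.

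The plakin and desmosome list holds genes for proteins that tie filaments to junctions and to the rest of the cytoskeleton. Of its 11 tested genes, 6 were lowered, 1 was raised and 4 did not pass (median log2 fold change -0.46). The shares over all tested genes were 26.6% lowered and 26.7% raised. DST, dystonin, a giant plakin, stood at 418, 364 and 414 CPM in the control libraries and at 161, 172 and 168 CPM in the others, 2.39-fold lower (edgeR adjusted p = 1.55e-08). MACF1, which cross-links microtubules and actin, fell by 0.62 and PKP4, a plakophilin, by 0.68 on the log2 scale. The spans of DST, MACF1 and PKP4 are 497, 406 and 226 kb, and with each library's trend on gene span removed the log2 fold changes were -0.73, -0.15 and -0.37, of which that of MACF1 no longer passed the test (adjusted p = 0.0502, in a range up to that value). PLEC, plectin, the main linker of vimentin, named after its values were seen, had a log2 fold change of -0.46 (426 ± 30.5 and 309 ± 63.2 CPM, SD, n = 3 each; adjusted p = 0.00423). The raised gene was JUP, plakoglobin, a plaque protein of desmosomes and adherens junctions, at 14.7, 16.8 and 19.6 CPM in the control libraries and 36.0, 35.9 and 31.0 CPM in the others, 2.01-fold higher (adjusted p = 4.47e-06).

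Partners of the lamins showed no common direction. Of 15 tested genes of the inner nuclear membrane and of the complex that links the lamina to the cytoskeleton, 4 were raised, 3 lowered and 8 did not pass (median log2 fold change -0.025). Over all tested genes 26.7% were raised and 26.6% lowered. LBR, the lamin B receptor, went from 95.2 ± 7.01 to 72.3 ± 5.56 CPM (SD, n = 3 each; 1.32-fold lower, edgeR adjusted p = 0.000632), and LEMD2, an inner membrane protein, fell by 0.33 on the log2 scale. TMPO, which encodes the lamina-associated polypeptides of the LAP2 type, went from 265 ± 3.57 to 319 ± 12.8 CPM (1.20-fold higher, adjusted p = 0.00114), and SYNE2, nesprin-2, rose by 0.28. SYNE2, which spans 465 kb, had a log2 fold change of 0.79 after removal of the span trend, and TMPO then had 0.16, and with library size alone LBR and LEMD2 were at -0.26 and -0.19, all 4 still past the test. Of 5 genes for enzymes that process lamins at their C-terminal motif, RCE1, the protease that removes the last residues, went from 25.6 ± 0.847 to 46.4 ± 2.24 CPM (1.81-fold higher, adjusted p = 7.30e-07). Transcripts of C11orf80 hold 17.8% of the 50-base windows of RCE1. FNTA, a farnesyltransferase subunit, went from 64.3 ± 5.46 to 90.3 ± 1.64 CPM (1.41-fold higher, adjusted p = 6.52e-05). FNTB, the other subunit, had a log2 fold change of 0.19 (adjusted p = 0.0759) that is uncertain, as 60.7% of its windows lie in a read-through transcript; with library size alone it was 0.32 (adjusted p = 0.00557, range up to 0.268). ZMPSTE24, the prelamin A protease, was at -0.025 (adjusted p = 0.766). Of 5 small heat shock proteins and their cofactors, known as chaperones of vimentin and desmin, HSPB1 fell by 0.52 (156 ± 7.05 to 109 ± 8.72 CPM, adjusted p = 3.51e-05), while BAG3 (-0.18, adjusted p = 0.102), HSPB6 (-0.40, 0.184), HSPB8 (0.42, 0.140) and CRYAB (-0.63, 0.187, named after its values were seen) did not pass; BAG3 passed with the gene span trend removed (-0.30, 0.00941) and without ATP6AP1 siRNA replicate 1 (-0.26, 0.0192), within a range up to 0.728.

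Levels that moved beside these results were recorded. The 13 stellate cell markers in the table summed to 1340.3 to 1489.7 CPM in the control libraries and to 816 to 1020.2 CPM in the libraries labelled ATP6AP1 siRNA. Of the 10 tested markers 7 were lowered and 2 raised (NGFR and HAND2), beside 26.6% lowered and 26.7% raised over all tested genes. Markers of other cell types were low. Hepatocyte markers, mostly SERPINA1 and TF, were at 10.2 to 11.7 CPM in the control libraries and 8.51 to 9.50 CPM in the others, with ALB at 6 counts in all libraries together. Endothelial markers, mostly TEK and CDH5, were at 14.9 to 16.8 and 11.8 to 14.4 CPM, and macrophage markers, mostly CD68 and CD14, at 61.3 to 73.2 and 59.0 to 64.7 CPM. Astrocyte and neural markers, mostly TUBB3 and MAP2, were at 40.2 to 49.2 CPM in the control libraries and 69.6 to 78.0 CPM in the others. AQP4 and SOX10 had 1 count each. Of the 3 tested genes of that list 2 were raised, beside 26.7% over all tested genes. The levels of CD68 and TUBB3 are uncertain, since 92.3% and 32.7% of their windows of 50 bases occur in transcripts of other genes. The part of these levels in the changes of the 10 genes was not tested. Gene span entered only as an alternative scaling, and its part in these changes was not tested. The lowered members span 9.35 kb (VIM), 4.04 kb (KRT18), 52.8 kb (KRT8), 57.5 kb (LMNA) and 60.4 kb (LMNB1), against a median of 30.8 kb. With the span trend removed their log2 fold changes were -0.87, -0.87, -0.58, -0.60 and -0.68, in place of -0.76, -0.82, -0.52, -0.55 and -0.64.

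**Figure D4:**
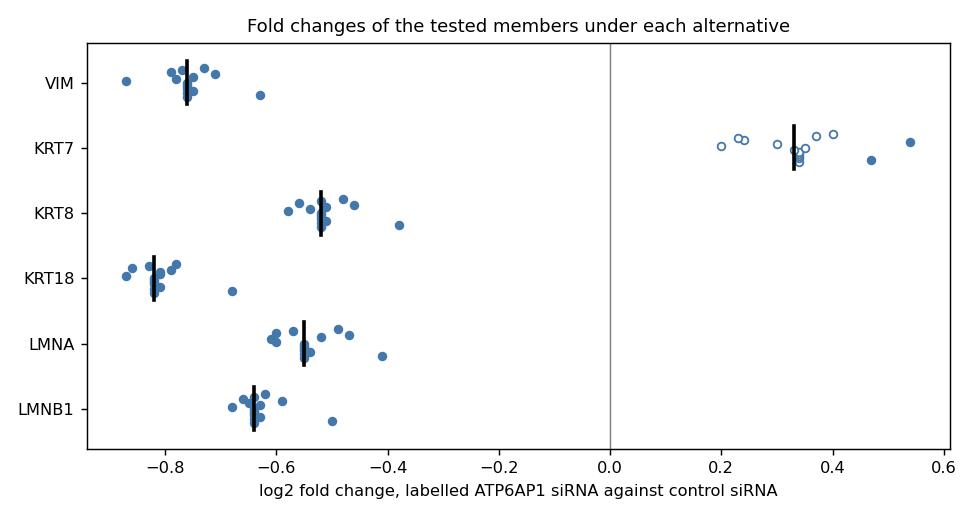
Log2 fold change of the 6 tested members under each of the 15 alternatives (points; filled where the adjusted p was under 0.05) beside the reported value (black line). VIM, KRT8, KRT18, LMNA and LMNB1 stay below 0 and filled throughout, and KRT7 is filled under 2 alternatives.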

How the data were processed

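Poly(A) RNA was sequenced as paired-end libraries, per the labels' protocols; groups and replicate numbers came from the sample titles. The submitters' processing notes list, with no roles, HISAT2 and featureCounts beside FastQC, Trimmomatic and DESeq2, and the build GRCh38 (hg38). The strand setting, the annotation and how reads with several hits were counted are not stated. The authors deposited estimated counts (expected counts) per gene, not normalised; 12.3 to 13.9% of the values of a library were not whole, whereas whole counts had been assumed, so they were rounded for the tests; ratios used the values as deposited.

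Symbols and exons came from GENCODE 44 (GRCh38); 21947 IDs had a symbol. Genes kept by edgeR's filterByExpr (15372) were compared with edgeR 4.0.16 (R 4.3.3; TMM, two-sided quasi-likelihood F test, Benjamini-Hochberg over all tested genes, threshold 0.05). TPM used the union of exons; 4 ratios had exact permutation tests. Likeness used log2(CPM + 0.5). No library was a duplicate of another: the chi-square per gene between libraries of a group was 3.63 to 9.50. The 10 members, the gene lists and the tests were chosen with earlier results of these data known. Genes were named by a written rule: the members, ATP6AP1, other family genes of at least 5 CPM, up to 4 genes of each partner list by lowest adjusted p, pseudogene and antisense rows of at least 0.5 CPM, the 2 most abundant markers of each cell type and the 4 genes most like VIM. DCN, LUM, NGFR, HAND2, EPCAM, CDH1, ALB, AQP4 and SOX10 fall outside it and were named after their values were seen. Listed genes without a row are not analysed here. On simulated counts for the 15372 genes of this comparison, edgeR recovered 22% of 50 genes changed 1.25-fold, 68% of those changed 1.5-fold, 80% for 2-fold changes and 96% for 4-fold changes, and 8.28% of its 145 calls were false. Only these few planted genes were changed there, whereas 53.3% of the tested genes passed in the data. The recovery and false shares therefore need not hold for the reported calls. Alternatives were DESeq2 1.42.0 and its size factors, library size alone, 2 filters, limma-voom (limma 3.58.1), unrounded values, a replicate block, removal of the gene span trend, each library left out, and for ratios transcript length and rounding.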

Additional observations from a re-analysis of the deposited data

How the results depend on the processing

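Over 15 alternatives, VIM, KRT8, KRT18, LMNA and LMNB1 kept their direction and passed the test each time, with log2 fold changes from -0.87 to -0.63, -0.58 to -0.38, -0.87 to -0.68, -0.61 to -0.41 and -0.68 to -0.50. The weakest value of each came with library size alone. The number of members raised went from 0 to 1 (KRT7) with library size alone, and ran from 0 to 1 when single libraries were left out. With library size alone 4 lamin processing enzymes were raised in place of 2. Lowered small heat shock genes numbered 2 in place of 1 with the gene span trend removed, and 1 to 2 when single libraries were left out. With the longest transcript as length, the keratin to VIM log2 ratio differed by 0.11 in place of 0.069, and the VIM share by -0.76 in place of -0.51 percentage points. The replicate numbers did not pair the libraries (correlations of deviations -0.0879, -0.0291 and -0.102), and with the replicate block 7195 genes passed in place of 8193 and 5 members were lowered in both. No cause of these changes was tested.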
